A study of Rattus norvegicus with 56 samples.

Results

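The regions described here are places in the brain genome of ageing rats that carried a called peak of H3K27me3, trimethylation of histone H3 at lysine 27, at 21 months of age and none at 13 months, and that lay well away from every 13-month peak. The rats had suffered intracerebral haemorrhage (bleeding within the brain), and chromatin immunoprecipitation with sequencing (ChIP-seq) mapped the mark. Overlapping H3K27me3 peaks of the 4 untreated lists (21-month ipsilateral, 21-month contralateral, 13-month ipsilateral and 13-month contralateral) were joined into 493767 regions. Of these, 38900 (7.88% of all joined regions) had a peak in both 21-month lists and in neither 13-month list, lay more than 5 kb from any 13-month peak and overlapped no peak of H3K4me3, the mark of promoters, in any list. They are called distant new regions below. Their presence at 21 months, their absence at 13 months, their distance from 13-month peaks and their lack of H3K4me3 are how they were chosen, so these are not findings.

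The groups were as follows. Ipsilateral (bleed-side) tissue of 21-month rats that received plasma of 3-month or of 22-month rats gave 1 H3K27me3 and 1 H3K9ac list each, from 1 ChIP and 1 input library per list. Untreated tissue of 21-month and of 13-month rats gave 1 list per side for H3K27me3, H3K9ac and H3K4me3, each from 2 ChIP and 2 input libraries pooled before peaks were called. Every sample was labelled with the haemorrhage, so the untreated groups carry it too, and the labels name no strain and no number of animals per library. The labels give the plasma as 3-month or 22-month and the series text as young or old, which is read here as the age of the donor rats. For the old rats the labels say 21 months, and the design text of the series says 22.

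H3K27me3 is laid down by Polycomb repressive complex 2, whose catalytic subunit is Ezh2 or Ezh1, and it is read by Polycomb repressive complex 1. In brain the mark is best known from broad domains over genes for developmental transcription factors that stay silent in mature neurons and glia, and in a thinner form it covers much of the silent genome. H3K27me3 and acetylation of histone H3 at lysine 9 (H3K9ac), a mark of active promoters and enhancers, are usually found apart. H3K4me3 marks active promoters, and together with H3K27me3 it marks promoters held in a poised state.

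Because the libraries of a group were pooled, each group has 1 value and no spread between replicates, and no difference between groups could be tested. The intervals given are exact 95% binomial intervals over regions and cover counting error only. The peak caller kept 117740131 ChIP tags for the 21-month ipsilateral list, 73142126 for the 21-month contralateral, 71635071 for the 13-month ipsilateral and 35621686 for the 13-month contralateral list, which held 300668, 367061, 117866 and 51805 peaks in that order. Duplicate ChIP tags made up 15, 19, 23 and 52% in the same order. The 21-month contralateral and 13-month ipsilateral lists had nearly equal ChIP tags and 367061 against 117866 peaks, but differ in side and age. On each side the 21-month list had more tags than the 13-month list, and the part of depth in the peak numbers was not tested. The 21-month and 13-month lists came from separate processing folders, so folder and age cannot be told apart. Whether the folders stand for separate runs is not given. In tissue as a whole, more cells with the mark and more of the mark per cell cannot be told apart either. The genome build and an annotation of its coordinates are not given in the sources used here, so no gene names or sequences are attached to the regions, and coordinates are as in the authors' lists, counted from 1.

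The first question was how much of the H3K27me3 seen at 21 months alone was distant from earlier peaks. A peak on both sides at 21 months and on neither side at 13 months was found in 108415 regions, 22.0% of all joined regions. Of those, 66398 lay within 5 kb of a 13-month peak and had no H3K4me3 peak (called adjacent new regions), 3117 overlapped H3K4me3 at any distance, and the 38900 distant new regions made up 35.9%. The distant new regions covered 25.5 Mb in all. They used 13.7% of the 21-month ipsilateral and 10.95% of the 21-month contralateral peaks. On 27 of them no distance could be taken, because their unplaced scaffold had no 13-month peak, and these counted as distant. In all, 46 lay on unplaced scaffolds and 38854 on assembled chromosomes.

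The count depended strongly on how many peaks each list contributed. With each of the 4 untreated H3K27me3 lists shortened to its 51805 strongest peaks by q-value, the length of the shortest of the 4, the same rule gave 1425 regions. With only the 21-month lists shortened and all 13-month peaks kept, it gave 618. Each 13-month list held back regions of its own. The rule gave 49197 regions without the 13-month contralateral list and 85321 without the 13-month ipsilateral one. Their depth differs, as given above, and its part in the count was not tested.

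Most lay within 20 kb of the earlier mark. Of the distant new regions, 16109 (41.4%) lay 5 to 10 kb from the nearest 13-month peak and 11558 (29.7%) 10 to 20 kb from it, while 1140 (2.93%) lay more than 100 kb away. The 3 farthest from a 13-month peak were neighbours on the X chromosome. They were at 57529352 to 57529995, at 57696472 to 57696943 and at 57860992 to 57861438, and lay 2045, 1878 and 1714 kb from a 13-month peak. Their 21-month folds were 2.51, 2.61 and 2.40 on the ipsilateral and 3.56, 2.97 and 2.99 on the contralateral side, and they lay 304, 471 and 636 kb from the nearest H3K4me3 peak. Regions on either side of the 5 kb limit looked alike in length and fold. The 2378 regions just inside it (5001 to 5500 bp away) had a median length of 574 bp and median folds of 2.52 ipsilateral and 3.06 contralateral. The 2752 adjacent new regions just outside it (4501 to 5000 bp) had a median of 592.5 bp and folds of 2.56 and 3.02.

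The distant new regions were shorter and weaker than regions with a peak in all 4 untreated lists, a contrast on which the choice of regions bears. Their median length was 551 bp (quartiles 409 and 787 bp, range 212 to 5199 bp), and 408 of them (1.05%) reached 2 kb. Adjacent new regions had a median of 596 bp. The 13753 regions with a peak in all 4 untreated lists and no H3K4me3 peak, called lasting regions here, had a median of 1618 bp. Lasting regions join peaks of all 4 lists and distant new regions join peaks of fewer. The part of this in the lengths was not tested. A single peak on each side made up 92.4% of the distant new regions.

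Fold enrichment, the authors' own ratio of ChIP signal to local background for each peak, had a median of 2.51 on the ipsilateral side (quartiles 2.20 and 2.86, highest 6.26) and 2.98 on the contralateral side (quartiles 2.58 and 3.49, highest 8.45). In lasting regions these medians were 3.58 and 4.35 in the same 21-month lists. Lasting regions also had to be called in both untreated lists of the younger rats, which are shorter, and distant new regions in neither. The choice of regions thus bears on this contrast, and its part was not tested. Both folds were 3 or more in 4195 distant new regions (10.8%), 11227 adjacent new regions (16.9%) and 9443 lasting regions (68.7%). Over all regions with a peak in both 21-month lists and no H3K4me3 peak the share was 23.9%. No distant new region had a fold of 8 or more on both sides, and 3 had one on 1 side. Such folds were rare in the whole 21-month lists too, with 663 of 300668 ipsilateral and 2853 of 367061 contralateral peaks. The contralateral fold was the higher in 73.2% of distant new regions, and in 71.4% of adjacent new and 72.7% of lasting regions. The folds were taken as the authors deposited them, and the distribution of folds on both sides is plotted next.

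**Figure D1:**
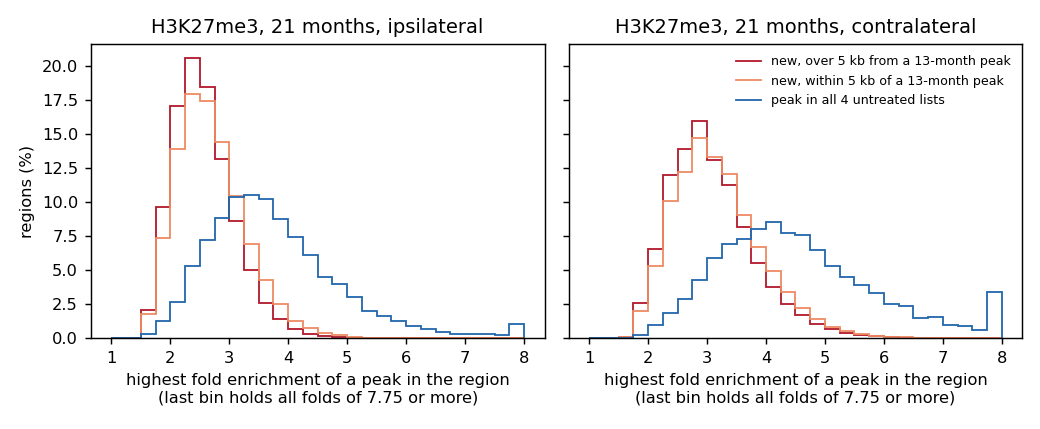
Share of regions (vertical axis, percent) by the highest fold enrichment of a peak in the region (horizontal axis, ratio to local background) in the 21-month ipsilateral (left) and contralateral (right) H3K27me3 lists, for new regions over 5 kb from a 13-month peak, new regions within 5 kb of one, and regions with a peak in all 4 untreated lists. The curve of the first set lies slightly to the left of the second, with medians of 2.51 against 2.63 ipsilateral and 2.98 against 3.09 contralateral. That of the regions in all 4 lists lies further to the right, with medians of 3.58 and 4.35.

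In both kinds of new region, strength on each side was only weakly related to strength on the other. Across the 38900 distant new regions the folds of the sides had a Pearson correlation of 0.109 and a Spearman correlation of 0.0913. Across adjacent new regions these were 0.139 and 0.123, and across lasting regions 0.498 and 0.371. These are descriptions, since all regions share the same libraries and are not independent replicates. The folds, and the shared length given next, also come from the lists by which the regions were chosen. That choice bears on how both kinds of new region differ from lasting regions in these values. Peaks of both sides coincided over a median of 53.1% of the region's length in distant new regions, 57.0% in adjacent new and 74.5% in lasting regions. The lowest −log10 q-values of distant new regions were 1.30 ipsilateral and 1.32 contralateral, at the caller's limit, and the medians were 4.58 and 5.36. Folds of this size were also called at 13 months. Of the 13-month ipsilateral peaks 26.4% had a fold no higher than the ipsilateral median of the distant new regions, and of the 13-month contralateral peaks 27.2% had one no higher than the contralateral median.

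The strongest examples by the lower of both folds lay on 5 different chromosomes and were 302 to 1406 bp long. The first, on chromosome 17 from 63114868 to 63115169, had folds of 5.90 ipsilateral and 5.83 contralateral, 37.5 kb from a 13-month peak. At chromosome 2, 209010496 to 209011217, the second had folds of 5.32 ipsilaterally and 7.56 contralaterally, and it alone of the 5 had an H3K27me3 peak in a plasma list, with a fold of 4.63 with plasma of 3-month rats. The third, on chromosome 11 from 64478095 to 64478443, reached 5.27 ipsilaterally and 5.34 contralaterally and carried an H3K9ac peak of fold 3.79 in untreated 21-month ipsilateral tissue. The nearest H3K4me3 peak lay 29.5, 17.3 and 8.23 kb from these 3. The other two, at chromosome 8, 73638758 to 73639536, and chromosome 1, 260890226 to 260891631, had ipsilateral folds of 5.17 and 5.63 and contralateral folds of 5.43 and 5.09. They lay 5.55 and 5.54 kb from a 13-month peak. The region on chromosome 8 carried an H3K9ac peak of fold 3.27 with plasma of 22-month rats.

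The 3 longest distant new regions were strings of several peaks. The longest, at chromosome 14, 79906961 to 79912159, spanned 5199 bp and joined 3 ipsilateral and 2 contralateral peaks with highest folds of 1.95 and 3.52. It also overlapped H3K9ac peaks, with folds of 3.41 with plasma of 22-month rats, 2.58 in untreated 21-month ipsilateral and 2.84 in 13-month contralateral tissue. The next, at chromosome 1, 99781777 to 99786896, joined 2 ipsilateral and 6 contralateral peaks with highest folds of 4.60 and 3.32. The third, at chromosome 4, 100164791 to 100169460, joined 4 ipsilateral peaks and 1 contralateral peak, with highest folds of 3.87 and 4.68. Neither of these other two overlapped a peak of H3K9ac or of the plasma lists.

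On the chromosomes the distant new regions were spread widely. Over the 20 autosomes they had a median density of 14.5 per Mb of span (the highest peak end of any list), from 11.6 on chromosome 2 to 21.6 on chromosome 19, where 1343 of them lay. The highest autosome thus had 1.86 times the density of the lowest. For adjacent new regions this ratio was 3.00, from 14.7 per Mb on chromosome 2 to 44.3 on chromosome 12, and for lasting regions it was 5.79, from 2.43 to 14.1 per Mb on the same chromosomes. These ratios were not tested, and the choice of regions bears on them, because adjacent and lasting regions need a 13-month peak at hand and distant new regions must lie away from one. The 13-month ipsilateral list had 33.0 peaks per Mb on chromosome 2 and 60.7 on chromosome 12. As a share of both kinds of new region they ran from 31.6% on chromosome 10 to 44.1% on chromosome 2.

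The X chromosome held 286 distant new regions, or 1.79 per Mb, the lowest density of the assembled chromosomes. H3K27me3 as a whole was sparse there too. The 21-month ipsilateral and contralateral lists had 12.4 and 15.4 peaks per Mb on X, against medians of 107 and 131 per Mb over autosomes, and H3K4me3 regions numbered 5.81 per Mb on X against 20.5. Of the new regions on X, 286 were distant and 157 adjacent, a distant share of 64.6%. The rule bears on this share, since 13-month peaks, which divide distant from adjacent, numbered 4.27 (ipsilateral) and 2.78 (contralateral) per Mb on X, against autosomal medians of 42.8 and 18.1. The Y chromosome, with a span of 3.29 Mb, held 10 distant and 2 adjacent new regions.

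**Figure D2:**
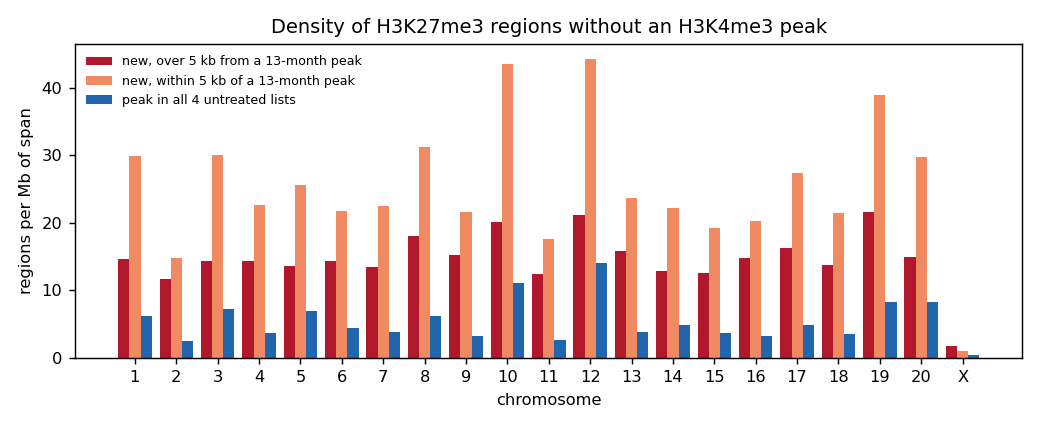
Regions without an H3K4me3 peak per Mb of chromosome span (vertical axis) on each autosome and X (horizontal axis), for new regions over 5 kb from a 13-month peak, new regions within 5 kb of one and regions with a peak in all 4 untreated lists. The first set lies between 11.6 and 21.6 per Mb on autosomes and at 1.79 on X, and the second set between 14.7 and 44.3 on autosomes, where the sets are divided by their distance from 13-month peaks.

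The distant new regions often lay near one another. Of the 38854 on assembled chromosomes, 64.3% (63.9 to 64.8) had another one within 10 kb, and the median distance to the nearest was 3.53 kb. The share was 85.1% for adjacent new regions, which are more numerous, and 64.9% for lasting regions, which are fewer, so these shares do not rank the sets. When neighbours at most 10 kb apart were linked, 21904 chains resulted. No 13-month H3K27me3 peak of either side can lie inside such a chain, because every region in it is more than 5 kb from one. Chains of 2 or more numbered 8047, with 24997 regions and a median span of 5.76 kb. Chains of 5 or more numbered 1176 on 20 chromosomes, with 7757 regions (19.96%) and a median span of 15.6 kb, and chains of 10 or more numbered 104, with 1258 regions and a median span of 31.6 kb.

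**Figure D3:**
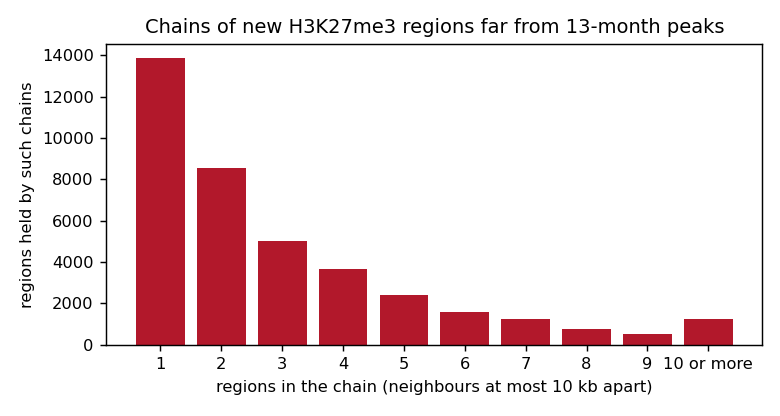
Number of distant new regions (vertical axis) held by chains of each size (horizontal axis, regions per chain, linked where neighbours lie at most 10 kb apart). Chains of 1 region held 13857 of the 38854 regions on assembled chromosomes, and chains of 10 or more held 1258.

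The longest chains, which were singled out after their values were seen, were stretches of scattered weak peaks. A chain of 19 regions, at chromosome 14, 77131269 to 77181100, spanned 49.8 kb, held 28 ipsilateral and 32 contralateral peaks at 21 months that covered 12.2 and 15.8 kb of it, and had median folds of 2.50 and 3.01. No H3K4me3 peak and no peak of either plasma H3K27me3 list lay inside it. Another chain of 19 regions, at chromosome 10, 54882766 to 54953721, spanned 71.0 kb, with 10.3 kb covered ipsilaterally and 14.6 kb contralaterally. It held 1 H3K27me3 peak of each plasma list. The widest chain, at chromosome 3, 152708552 to 152791339, spanned 82.8 kb and held 16 regions. It was covered over 8.17 kb ipsilaterally and 27.1 kb contralaterally, and it also held 6.59 kb of H3K9ac in untreated 21-month ipsilateral tissue and 1 H3K4me3 peak.

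Over all chains of 5 or more, 21-month peaks covered 21.5% of the span ipsilaterally and 30.7% contralaterally. Of the 1176, 1074 (91.3%) held no H3K4me3 peak between their regions. The rule leaves out regions with H3K4me3, and no share for other spans of this length was taken, so the 91.3% has no base line. Chains of different size hardly differed in strength, as the median of the chains' median lower folds was 2.42 for chains of 2 or more, 2.41 for 5 or more and 2.43 for 10 or more. With a fold of 3 or more asked of both sides, 18.3% of the 4195 remaining regions had another within 10 kb, against 64.3% of all 38854, and that set holds fewer regions per Mb.

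At a scale of 1 Mb, the 2770 windows of the assembled chromosomes held a median of 10.5 distant new regions (quartiles 5 and 19), and 129 windows held 0. The busiest 10% of windows, 277 of them, held 30.7% of the regions. The fullest window, at chromosome 19, 50000001 to 51000000, held 92 distant new regions beside 87 adjacent new and 10 lasting ones. In its 21-month lists it had 349 ipsilateral and 415 contralateral peaks, against 55 and 36 in the 13-month lists. The next windows were at chromosome 9, 14000001 to 15000000, with 86, and at chromosome 10, 54000001 to 55000000, with 83. The plasma H3K27me3 lists were short throughout, with 37241 (3-month plasma) and 51178 (22-month plasma) peaks in all against a chromosome span of 2781 Mb. Whether these windows differ from others in plasma peaks was not tested. With plasma of 3-month rats the 3 windows held 9, 13 and 13 H3K27me3 peaks, and with plasma of 22-month rats 8, 12 and 12.

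The next question was where the distant new regions stand relative to promoter-type chromatin. Their median distance to the nearest H3K4me3 peak was 22.4 kb (quartiles 10.01 and 46.3 kb), against 18.9 kb for adjacent new and 14.6 kb for lasting regions. As a base line, the part of the assembled chromosomes that the rule could have chosen from, that is more than 5 kb from any 13-month H3K27me3 peak and outside H3K4me3 peaks, was taken every 1 kb. This open span, 2075 Mb or 74.6% of the total, includes assembly gaps and unmappable sequence, and its median distance was 25.7 kb.

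The distances differed from those of the open span at both ends. Close to H3K4me3 they were slightly sparse, with 4.58% within 2 kb, against 7.53% of adjacent new regions, 10.98% of lasting regions and 5.59% of the open span. Few lay far from H3K4me3, with 6.37% more than 100 kb away, against 13.1% of the open span. Within 100 kb of an H3K4me3 peak lay 93.6% (93.4 to 93.9), and the mean number of H3K4me3 regions within 100 kb was 4.14, against 4.56 for adjacent new regions, 5.45 for lasting regions and 3.73 for the open span. The nearest H3K4me3 peak belonged to a region marked in all 4 H3K4me3 lists for 33.8% of distant new, 37.4% of adjacent new and 40.8% of lasting regions, and 31.5% of the open span.

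**Figure D4:**
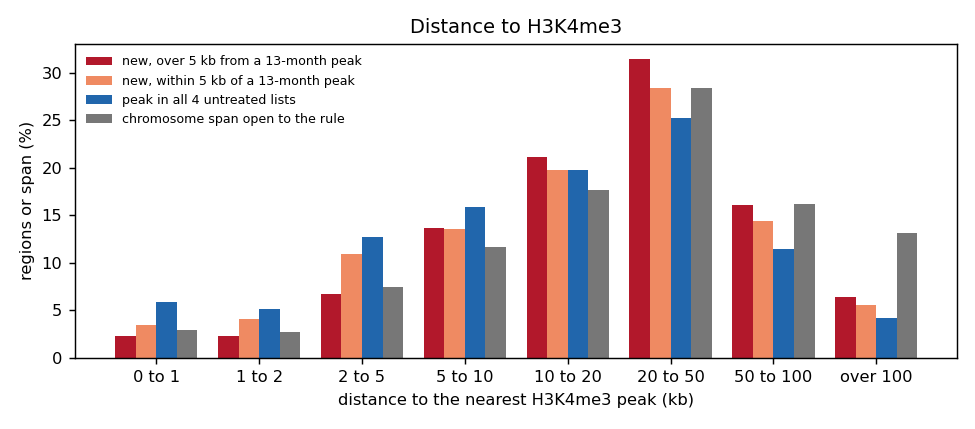
Share of regions, or of the span open to the rule (vertical axis, percent), by distance to the nearest H3K4me3 peak of any list (horizontal axis, kb). The bands are of unequal width, and the band of 20 to 50 kb holds the most of every set, with 31.4% of distant new regions and 28.4% of the open span, while beyond 100 kb lie 6.37% and 13.1%.

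By windows of 1 Mb, the 44 windows with no H3K4me3 region had a median of 0 distant new regions, the 110 with 1 to 5 had a median of 1, and the 253 with 6 to 10 had a median of 7. Windows with 11 to 20, 21 to 40 and 41 or more H3K4me3 regions had medians of 10, 13 and 12. These counts are per window and not per Mb open to the rule, and windows rich in H3K4me3 also held more lasting regions, with medians of 1, 3 and 6, within 5 kb of which no distant new region could be counted. Strength hardly varied with H3K4me3 distance, with median ipsilateral folds of 2.51 both within 1 kb of an H3K4me3 peak and beyond 100 kb, and contralateral folds of 3.03 and 2.97.

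The plasma-treated tissue, from the ipsilateral side of 21-month rats, gave lists that did not enter the choice of regions. Few of the distant new regions had a peak in them. With plasma of 3-month rats 743 (1.91%, 1.78 to 2.05) overlapped an H3K27me3 peak, and with plasma of 22-month rats 824 (2.12%, 1.98 to 2.27). The background shares, over all 472366 joined regions without H3K4me3, were 3.89% and 4.97%, so the distant new regions lay below them. Adjacent new regions had 3.75% and 4.37%, and lasting regions 34.1% and 26.1%. Both plasma lists had a peak in 57 distant new regions (0.147%, against a background of 1.06%), and 37390 (96.1%, against 92.2%) had none in either. The plasma lists were short, with 37241 and 51178 peaks from 41700562 and 44383604 ChIP tags, against 300668 peaks from 117740131 tags in untreated 21-month ipsilateral tissue, and the part of depth was not tested. The plasma lists also came from a processing folder of their own, so treatment and folder cannot be told apart.

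The order of the 3 sets was the same within a band of length. Among regions of 600 to 900 bp, 2.01% (1.74 to 2.31) of distant new, 3.94% (3.66 to 4.23) of adjacent new and 22.2% (20.3 to 24.3) of lasting regions overlapped a peak with plasma of 3-month rats. With plasma of 22-month rats the shares in this band were 1.81%, 4.33% and 20.9%. Measured by bases, plasma peaks covered 0.750% (3-month plasma) and 0.757% (22-month plasma) of the distant new regions. They covered 0.0920% and 0.175% of the open span, so coverage in the distant new regions was 8.15 and 4.33 times that of the open span, which includes those regions. In lasting regions it was 11.3% and 9.50%.

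Regions distant from 13-month peaks with a 21-month peak on the ipsilateral side alone, 40562 in number, overlapped a plasma peak in 1.40% (3-month plasma) and 2.68% (22-month plasma). Those on the contralateral side alone, 104026 in number, did so in 0.638% and 0.947%. By bases, plasma peaks covered 0.843% and 1.61% of the regions on the ipsilateral side alone, above the 0.750% and 0.757% of distant new regions, and 0.331% and 0.476% of those on the contralateral side alone. The plasma tissue was ipsilateral, and 1-sided regions were shorter, with median lengths of 271 and 311 bp.

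The share with a plasma peak varied with settings of strength, which also changed the length of the regions. For 3-month plasma it was 3.43% in regions with both folds of 3 or more, against 1.91% of all, and for 22-month plasma 3.22% against 2.12%. With all 4 untreated lists shortened to equal numbers by q-value, the 1425 regions found had 8.42% (7.03 to 9.99) for 3-month plasma. For 22-month plasma they had 4.56% (3.54 to 5.78), but this setting also shortens the 13-month lists. When the 21-month lists alone were shortened, the 618 regions found had 6.80% (4.94 to 9.08) for 3-month and 2.27% (1.24 to 3.77) for 22-month plasma. The last interval holds both 2.12% and 3.22%, so for 22-month plasma it does not tell the measures of strength apart. Median length was 551 bp over all and 646 bp with both folds of 3 or more. It was 1009 bp in the 1425 and 906 bp in the 618 regions. Over all distant new regions, the 3-month plasma share was 1.30% up to 300 bp and 2.61% at 900 to 1500 bp. For 22-month plasma these were 2.35% and 1.94%, and the part of length was not tested. By distance from 13-month peaks the share for 3-month plasma was 2.02% at 5 to 10 kb and 1.14% (0.609 to 1.94) beyond 100 kb, and for 22-month plasma 2.32% and 1.67% (1.01 to 2.59). Each plasma list is 1 ChIP library, so whether the plasmas differ could not be tested.

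The 3 distant new regions with the highest plasma fold among the 57 marked in both plasma lists lay just past the 5 kb limit. The first, on chromosome 17 from 45394112 to 45394578, had folds of 5.32 with 3-month plasma and 5.17 with 22-month plasma, and in untreated 21-month tissue 3.19 ipsilateral and 2.07 contralateral. The second, at chromosome 11, 25527874 to 25528317, had 3.296 and 5.04 with plasma, and 2.41 and 4.32 untreated. The third, at chromosome 2, 122268377 to 122268988, had 3.24 and 4.94 with plasma, and 2.34 and 3.11 untreated. They lay 5.08, 5.17 and 5.16 kb from a 13-month peak and had no H3K9ac peak in any list.

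H3K9ac was examined next, as the mark of active promoters and enhancers that H3K27me3 usually avoids. No H3K9ac peak of any of the 6 lists lay in 34993 of the distant new regions (90.0%, against a background of 91.4%). In untreated 21-month tissue 1993 (5.12%, 4.91 to 5.35) had an H3K9ac peak on at least 1 side, against a background of 4.51% over the same 472366 joined regions without H3K4me3. The backgrounds given here and below for H3K9ac are not matched for length, with which the ipsilateral H3K9ac share of distant new regions rose. The ipsilateral list met 1764 of them (4.53%, background 3.68%) and the contralateral list 566 (1.46%, background 1.63%), although the contralateral list is the longer, with 120348 against 102607 peaks. On the ipsilateral side alone 1427 (3.67%, background 2.88%) had H3K9ac, on the contralateral side alone 229 (0.589%, background 0.829%), and on both sides 337 (0.866%, background 0.797%).

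This lean to the ipsilateral list held by bases and in the other sets of regions. Ipsilateral H3K9ac peaks covered 2.42% of the distant new regions and 1.31% of the open span, a ratio of 1.84, while contralateral ones covered 0.670% and 1.94%, a ratio of 0.345. In adjacent new regions the ratios were 1.29 and 0.251, and in lasting regions 1.83 and 0.273, so all 3 sets leaned the same way. The ipsilateral H3K9ac list came from 66910243 ChIP tags and the contralateral from 99213634. Of their peaks, 5736 ipsilateral and 1215 contralateral ones had a fold of 8 or more, so the lists also differ in strength. The part of depth and of list strength was not tested.

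The plasma and 13-month H3K9ac lists also met the distant new regions unevenly. With plasma of 3-month rats 103 (0.265%, background 0.374%) had an H3K9ac peak, and with plasma of 22-month rats 2194 (5.64%, background 4.71%). By bases the 3-month plasma list covered 0.102% of them and 0.550% of the open span, and the 22-month plasma list 2.95% and 2.06%. These lists hold 50651 and 123863 peaks from 57426239 and 56130825 ChIP tags. A fold of 8 or more was reached by 682 and 10261 of these peaks, and the part of list strength was not tested. At 13 months, when no H3K27me3 peak was called there, 659 (1.69%, background 1.37%) had an H3K9ac peak on the ipsilateral side and 1398 (3.59%, background 2.82%) on the contralateral side.

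**Figure D5:**
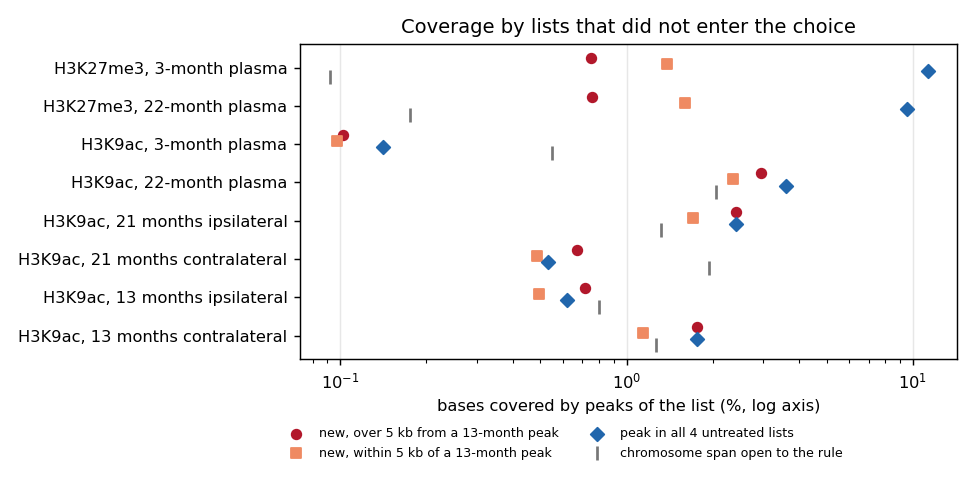
Bases covered by peaks of each list that did not enter the choice of regions (horizontal axis, percent, log scale), for distant new regions, adjacent new regions, regions with a peak in all 4 untreated lists and the chromosome span open to the rule. Plasma H3K27me3 covered 0.750% and 0.757% of distant new regions, above the open span at 0.0920% and 0.175%, while H3K9ac of 21-month contralateral tissue covered 0.670%, below the open span at 1.94%.

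A change in H3K9ac that both sides shared was rare in distant new regions and in all joined regions without H3K4me3 alike. H3K9ac on both sides at 21 months and on neither at 13 months was found in 68 (0.175%, background 0.203%). H3K9ac on both sides at 13 months and on neither at 21 months, the counterpart of the change by which the regions were chosen, was found in 49 (0.126%, 0.0932 to 0.166, background 0.0836%). All 4 untreated H3K9ac lists had a peak in 119 (0.306%, background 0.264%). Adjacent new regions showed 125, 57 and 115 of their 66398 in the same order. The 13-month ipsilateral H3K9ac list had 19323327 ChIP tags, the fewest of the 16 lists, and 82% duplicates, and the part of depth was not tested.

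H3K9ac was more frequent in distant new regions closer to H3K4me3. Within 1 kb of an H3K4me3 peak, 11.1% of the 890 distant new regions had 21-month ipsilateral and 5.17% contralateral H3K9ac, and beyond 100 kb these shares were 2.30% and 0.766% of 2479. For plasma H3K27me3 the shares in these bands were 3.15% and 1.37% with 3-month plasma, and 4.04% and 1.17% with 22-month plasma. Distance from 13-month H3K27me3 went the other way for H3K9ac, with 4.24% ipsilateral at 5 to 10 kb and 5.88% beyond 100 kb. These shares also varied with length. The ipsilateral H3K9ac share was 2.22% among distant new regions of 300 bp or less and 12.8% among those over 1500 bp.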

How the data were processed

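The data were 16 peak lists from 28 ChIP and 28 input libraries, grouped by the labels. Per the file headers, the authors made each list with MACS 2.1.1.20160309 as narrow peaks, setting the q-value limit to 0.05 and keeping 1 tag per position. The submitters' processing notes also name cutadapt, Bowtie2 and HOMER. Narrow calling can break broad domains into short peaks. Per the file headers, the authors' lists give for each peak a pileup signal (not used), a fold, which is a ratio to local background, and a −log10 q-value.

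Joining, distances and overlaps (1 bp or more) used pandas 2.3.3, numpy 2.4.6 and scipy 1.17.1 under Python 3.11.15, and matplotlib 3.10.9 drew the figures. The rule was tested on simulated lists. Regions took the place of genes. Those named were the 5 of highest lower fold, the 3 longest, the 3 farthest from a 13-month peak, the 3 fullest 1 Mb windows, the 3 of highest plasma fold among those in both plasma lists, and the chromosomes of highest and lowest density. Gene lists and cell type markers went unused, since no annotation of the build was used here. The members and sets were chosen with earlier results of these data known.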

Additional observations from a re-analysis of the deposited data

How the results depend on the processing

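The values tried were 7 results: the number of distant new regions (38900), their median length (551 bp), the shares with a peak with 3-month plasma (1.91%), with 22-month plasma (2.12%) and with 21-month H3K9ac on either side (5.12%), the share within 100 kb of H3K4me3 (93.6%) and the share with another within 10 kb (64.3%). Of 54 values under alternatives, 43 moved beyond 1.5 times (counts) or the counting interval, and the cause was not tested. More than 10 kb from a 13-month peak they were 22791, 536 bp, 1.83%, 1.97%, 5.36%, 93.4% and 59.6%, and more than 50 kb away 3545, 496 bp, 1.16%, 1.97%, 6.12%, 90.2% and 41.2%. With peaks up to 1 kb apart joined they were 32733, 1140 bp, 2.84%, 3.84%, 7.55%, 93.8% and 51.6%. Requiring both 21-month folds to reach 3 gave 4195, 646 bp, 3.43%, 3.22%, 4.89%, 93.2% and 18.3%, while −log10 q of 3 or more gave 37384, 597 bp, 2.63%, 2.81%, 5.10%, 93.9% and 63.9%. Equal peak numbers in the 4 untreated H3K27me3 lists, with the plasma lists whole, gave 1425, 1009 bp, 8.42%, 4.56%, 6.18%, 93.6% and 12.6%. An overlap of 50% of the region gave 0.681%, 0.830% and 2.37% for both plasmas and H3K9ac. Added after seeing the data, shortening the 21-month lists alone gave 618, 906 bp, 6.80%, 2.27%, 7.12%, 93.4% and 8.58%, and leaving out a 13-month list gave 85321 (ipsilateral left out) or 49197 (contralateral left out) regions. No paired analysis was possible because the libraries of each group were pooled before peak calling and no test was made, and single replicates could not be left out for the same reason. Absence of a peak is not absence of the mark, and a region called absent at 13 months depends on the depth of those lists.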
